A study of Homo sapiens with 18 samples.

Results

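Cytosolic ribosomal protein genes encode the protein part of the ribosome that translates nuclear-encoded mRNAs. They were taken from the 3 deposited gene tables by symbol: RPL or RPS followed by a digit, together with RPLP0, RPLP1, RPLP2 and RPSA. Pseudogene copies, antisense genes, readthrough genes, the RPS6K kinases and RPS19BP1, whose product binds RPS19, were left out. Of 35588 genes listed with an Ensembl identifier in any table, 87 were members, 52 of the large subunit and 35 of the small subunit. Of these, 84 are listed for SW480-LM3 and SW480-P, 86 for the LX-2 groups and 84 for the LV5 groups, and 83 are listed for all. RPL3L is missing from the list for SW480-LM3 and SW480-P. RPS4Y1 and RPS4Y2 are counted as members and given no value.

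The large subunit joins amino acids and passes the nascent chain through an exit tunnel, and the small subunit reads the mRNA. The proteins are made in the cytoplasm, imported into the nucleolus and assembled on ribosomal RNA, and most are needed in equal number. Most of their mRNAs begin with a terminal oligopyrimidine (TOP) tract, a C at the cap followed by a run of C and T, through which mTOR signalling and LARP1 set their translation. A few genes have paralogs that can replace the usual protein in some ribosomes, and loss of several members causes Diamond-Blackfan anaemia.

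Poly(A)-selected RNA of 18 human cell culture libraries was sequenced in 6 groups of 3, which form 3 comparisons with no library in common. SW480-LM3 is a highly metastatic line that the submitters selected from the colon cancer line SW480 over 3 rounds of spleen injection, and SW480-P is its parent. EV-XP-NID1-LX-2 are cells of the hepatic stellate line LX-2 incubated for 48 h with vesicles containing the basement membrane protein NID1, and EV-XP-LX-2 are LX-2 cells given control vesicles. LV5-NID1 are SW480 cells overexpressing NID1 and treated for 72 h with GW4869, an inhibitor of vesicle release, and LV5 is their control. Whether the LV5 cells were given GW4869 too is not stated, so in that comparison overexpression and treatment cannot be told apart. The letters XP are not explained, and neither the vector nor the number of clones behind these lines is stated. Since nothing says that the 3 replicates of a group came from separate cultures, p-values cover only the spread among these libraries, and that spread may be technical.

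The SW480-LM3 and SW480-P table holds a signal that behaves as reads divided by 1 factor per library, with 15531517 to 16586016 recovered reads in SW480-LM3 libraries and 15504205 to 18965163 in SW480-P libraries. The other tables hold TPM, which scale for depth and gene length, and their depth is unknown. NID1 had 44.7 to 49.1 signal in SW480-LM3 and 0.352 to 0.582 signal in SW480-P, and 348 to 379 TPM in LV5-NID1 and 0 to 0.04 TPM in LV5. In LX-2 cells, which received NID1 in vesicles, NID1 had 18.02 to 22.6 TPM in EV-XP-NID1-LX-2 and 25.1 to 25.97 TPM in EV-XP-LX-2. The stellate cell markers COL1A1 and PDGFRB were present in both LX-2 groups. Of 9 colon epithelial markers, 3 averaged at least 1 TPM in LV5-NID1 and 4 in LV5. KRT18, the most abundant, averaged 546 TPM in LV5-NID1 and 861 TPM in LV5. EPCAM had 8.39 to 9.57 TPM in LV5-NID1 and 4.24 to 5.73 TPM in LV5. VIL1 and CDX2 were at or near 0 in the LV5 table, with 0 to 0.08 TPM VIL1 in LV5-NID1 and 0.16 to 0.23 TPM in LV5, although both were present in SW480-LM3 and SW480-P. In bulk samples, fewer cells of a type and less RNA per cell cannot be told apart. Values were tested as log2(value + 1) with limma and its variance trend, log2 changes are on that scale, and a gene was called where the Benjamini-Hochberg adjusted p over all genes tested was under 0.05.

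Start-site windows are shown for members whose changes are described further on, because the TOP tract is the sequence feature these genes share. They were read from RefSeq promoters of GRCh38.p14, which matched 69 of the 87 members. Each window runs from 10 bases before the annotated start to 20 bases from it, 5′ to 3′, and capitals mark a run of C and T that opens with a C at the start and has at least 5 bases. RPL39 lies at chrX:119791611-119791640 (-), RPL26 at chr17:8383174-8383203 (-), RPL24 at chr3:101686699-101686728 (-), RPL12 at chr9:127451387-127451416 (-) and RPL28 at chr19:55385922-55385951 (+). RPLP1 lies at chr15:69452808-69452837 (+), RPS18 at chr6:33272065-33272094 (+), RPS6 at chr9:19380217-19380246 (-) and RPS27 at chr1:153990752-153990781 (+). The windows without capitals are RPL4 at chr15:66504836-66504865 (-), RPL26L1 at chr5:172958719-172958748 (+) and RPS27L at chr15:63157458-63157487 (-).
RPL39: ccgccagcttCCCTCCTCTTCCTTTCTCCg
RPL26: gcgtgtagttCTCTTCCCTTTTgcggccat
RPL24: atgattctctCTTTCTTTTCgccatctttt
RPL12: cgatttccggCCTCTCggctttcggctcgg
RPL28: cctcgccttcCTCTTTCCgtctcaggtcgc
RPLP1: ggcgcgagagCCCCTTTCCTCagctgccgc
RPS18: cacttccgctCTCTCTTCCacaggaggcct
RPS6: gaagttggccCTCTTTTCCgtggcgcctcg
RPS27: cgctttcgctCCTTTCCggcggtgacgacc
RPL4: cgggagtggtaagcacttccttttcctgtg
RPL26L1: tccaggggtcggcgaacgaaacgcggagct
RPS27L: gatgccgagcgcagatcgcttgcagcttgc

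Among matched members, 29 of 42 large subunit genes (69.0%) and 19 of 27 small subunit genes (70.4%) had such a tract exactly at an annotated start, against 1356 of 27236 other genes (4.98%). Allowing the tract to open within 5 bases of the start gave 35 and 21 members, 83.3% and 77.8%, against 25.1% of other genes. RPL39 had the longest tract, of 19 bases. RPL4 had none at its start, but 1 of 12 bases opened within 5 bases of it. Of the 5 matched paralogs only RPL22L1 had one, of 6 bases, so that RPL26L1 and RPS27L differ from RPL26 and RPS27 in this feature. The letters CCGGAA, searched on both strands of the 300 bases around the start, were in 39 of 69 members (56.5%) and 20% of other genes, and TATAAA was in 6 members (8.70%) and 14% of other genes. Members with and without a tract at the start had close median changes in every comparison: -1.44 (47 genes) and -1.25 (20 genes) for SW480-LM3 against SW480-P, -0.064 and -0.039 for EV-XP-NID1-LX-2 against EV-XP-LX-2, and 0.31 and 0.28 for LV5-NID1 against LV5.

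SW480-LM3 was compared with SW480-P to see what distinguishes the selected metastatic line from its parent. All 84 members were called lower in SW480-LM3 by limma, 51 of the large and 33 of the small subunit, beside 43.9% of all genes tested. In either direction 87.8% of all genes were called in this comparison. With quantile normalization RPL8, RPLP2 and RPS6 were called higher instead, and with trends on GC content and length removed RPL9, RPL36AL, RPS6 and RPS3A were, and 77 members stayed lower under either setting, beside 45.3% and 42.9% of all genes. The median log2 change was -1.41 in either subunit, a level 0.376 times that of SW480-P, where the median over all genes was -0.0041. It was -0.64 in the large and -0.60 in the small subunit with quantile normalization, and -0.87 in either with the trends removed. Of the members, 67 were lower by at least 1 on the log2 scale, beside 21.4% of all genes lower by that much and 23.9% higher. The groups overlapped for no member, and 43.8% of all genes were lower with no overlap and 43.8% higher.

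Together the members made up 6.94 ± 0.10% of the summed signal in SW480-LM3 libraries and 14.97 ± 0.27% in SW480-P libraries (SD, n = 3 each). The large subunit took 4.17, 4.07 and 4.08% in the SW480-LM3 libraries, against 9.24, 9.16 and 8.92% in the SW480-P libraries. The small subunit took 2.89, 2.81 and 2.81% in the SW480-LM3 libraries, against 5.95, 5.90 and 5.75% in the SW480-P libraries. Replicates therefore lay close together and the groups far apart. The ratio of large to small subunit signal was 1.44 to 1.45 in SW480-LM3 libraries and 1.55 in each SW480-P library. Rescaling each library by its total of recovered reads moved the median of all genes by 0.26 and left all 84 members lower, with a median change of -1.12. The summed signal of 8 listed colon epithelial markers was 13175 to 13888 in SW480-LM3 libraries and 3522 to 3789.5 in SW480-P libraries, most of it KRT8, and its part in the members' shares was not tested.

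**Figure D1:**
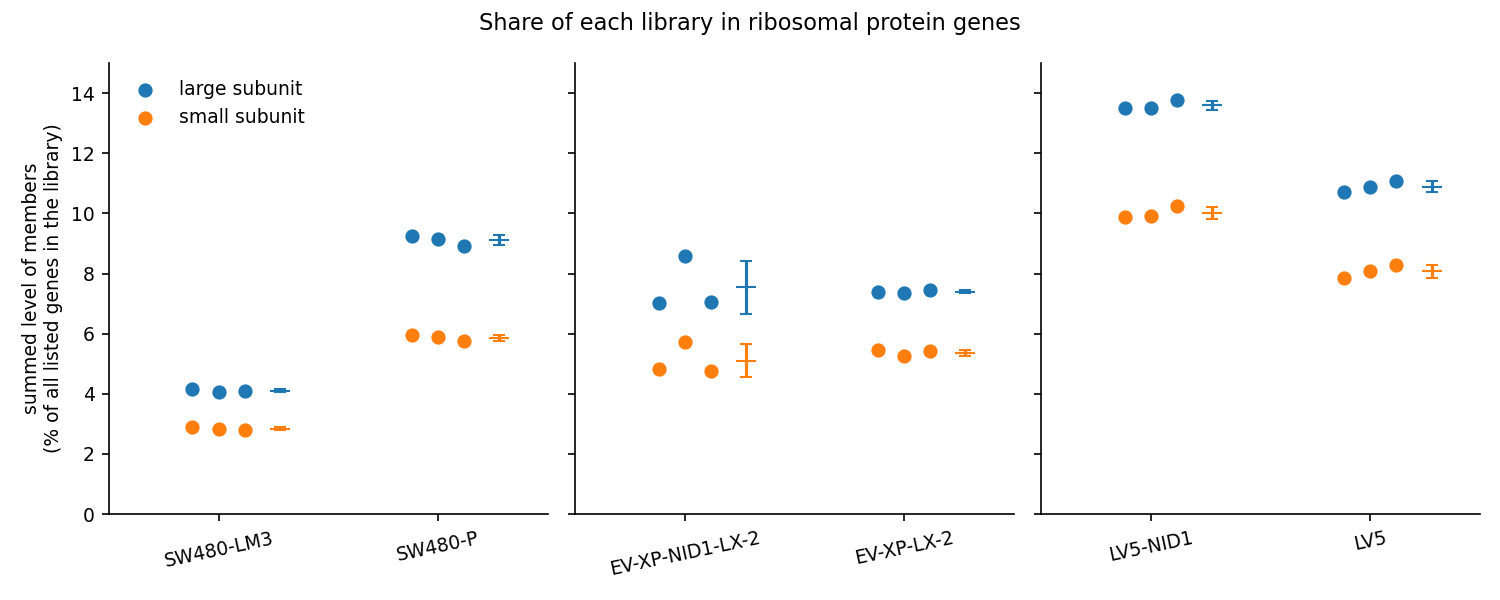
Share of each library taken by ribosomal protein genes (vertical axis, % of the summed level of all listed genes), with the large subunit in blue and the small subunit in orange. Points are libraries, replicates 1 to 3 from left to right, and bars are the mean ± SD. The left panel holds signal not scaled for length, from a list without mitochondrially encoded genes. The others hold TPM with such genes listed, so shares compare only within a panel. SW480-LM3 sits at 4.1% and 2.8% below SW480-P at 9.1% and 5.9%, EV-XP-NID1-LX-2 replicate 2 stands above the other LX-2 libraries, and LV5-NID1 sits above LV5 for both subunits.

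Within the large subunit the fall was uneven. RPL12, which sits at the base of the stalk, had 532, 519 and 521 signal in the SW480-LM3 libraries, against 3639.7, 3516 and 3383 signal in the SW480-P libraries (log2 change -2.74 ± 0.031 (SE), adjusted p = 1.62e-17). Every SW480-LM3 library thus held far less than the lowest SW480-P library. RPL37, a small zinc-binding protein, had 771, 722 and 748 signal in the SW480-LM3 libraries, against 4158, 4229 and 3923 signal in the SW480-P libraries (log2 change -2.46 ± 0.034 (SE), adjusted p = 1.01e-16). RPL31, at the rim of the exit tunnel, had 497, 471 and 482 signal in the SW480-LM3 libraries, against 2499, 2471 and 2452 signal in the SW480-P libraries (log2 change -2.35 ± 0.029 (SE), adjusted p = 3.2e-17). RPL35 at the same rim had 657, 641 and 632 signal in the SW480-LM3 libraries, against 3239, 3265 and 3225 signal in the SW480-P libraries (log2 change -2.33 ± 0.027 (SE), adjusted p = 2.01e-17). In each of these members the replicates of a group lay close together, and RPL17, also at the rim, changed by -2.14.

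The smallest changes of the large subunit were those of RPL28, RPLP2, RPL8 and RPL7L1. RPL28 had 444, 449 and 468 signal in the SW480-LM3 libraries, against 711, 721 and 676 signal in the SW480-P libraries (log2 change -0.63 ± 0.034 (SE), adjusted p = 1.53e-10). The groups stayed apart even there. RPLP2, RPL8 and RPL7L1 had log2 changes of -0.67, -0.71 and -0.72. The stalk, which recruits translation factors to the ribosome, is built of RPLP0 with pairs of RPLP1 and RPLP2. RPLP0 had 2184, 2152 and 2133 signal in the SW480-LM3 libraries, against 6027, 5997 and 5671 signal in the SW480-P libraries (log2 change -1.45 ± 0.029 (SE), adjusted p = 2.66e-15). RPLP1 had 951, 938 and 931 signal in the SW480-LM3 libraries, against 2754, 2725 and 2576 signal in the SW480-P libraries (log2 change -1.51 ± 0.030 (SE), adjusted p = 2.58e-15). RPLP2 had 731, 742 and 731 signal in the SW480-LM3 libraries, against 1211, 1188 and 1114 signal in the SW480-P libraries. The partners of the stalk thus fell by unlike amounts, and RPLP2 stood at 76.9 to 79.1% of the RPLP1 signal in SW480-LM3 libraries and at 43.3 to 43.98% in SW480-P libraries.

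RPL5 and RPL11, which bind 5S ribosomal RNA and can restrain the p53 regulator MDM2, were lower, with log2 changes of -1.41 and -1.71. RPL5 had 874, 868 and 865 signal in the SW480-LM3 libraries, against 2290.0, 2314 and 2332 signal in the SW480-P libraries. RPL11 had 716, 718 and 698 signal in the SW480-LM3 libraries, against 2340.2, 2372 and 2294 signal in the SW480-P libraries. RPL23, another MDM2-binding protein, changed by -1.75, RPL10, which takes part in the last step of large subunit maturation, by -1.86, RPL13A by -1.05 and RPL38, which in mouse is needed for translation of some Hox mRNAs, by -0.84. RPL39, the exit tunnel protein with the longest tract, changed by -1.26, less than the subunit's median.

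In the small subunit RPS27L, RPS26, RPS27A and RPS27 fell most. RPS27L, a paralog of RPS27 that p53 can induce, had 14.2, 14.6 and 13.9 signal in the SW480-LM3 libraries, against 87.2, 83.6 and 93.3 signal in the SW480-P libraries (log2 change -2.55 ± 0.065 (SE), adjusted p = 2.94e-14). RPS26, at the mRNA exit channel, had 204, 189 and 184 signal in the SW480-LM3 libraries, against 802, 829.6 and 795 signal in the SW480-P libraries (log2 change -2.07 ± 0.039 (SE), adjusted p = 1.41e-15). RPS27A, made as a fusion with ubiquitin, had 590.3, 567 and 568 signal in the SW480-LM3 libraries, against 2322, 2275 and 2335 signal in the SW480-P libraries (log2 change -2.005 ± 0.028 (SE), adjusted p = 1.15e-16). All SW480-LM3 libraries were far below all SW480-P libraries for these members. RPS27 changed by -1.93. The least changed were RPS6, RPS9, RPS29 and RPS28, with log2 changes of -0.74, -0.76, -0.83 and -0.84. RPS6, the substrate of the S6 kinases, had 1493, 1448 and 1447 signal in the SW480-LM3 libraries, against 2433, 2435 and 2460.5 signal in the SW480-P libraries (log2 change -0.74 ± 0.026 (SE), adjusted p = 1.16e-12). Its direction turned with quantile normalization (log2 change 0.12) and with GC and length trends removed (0.23).

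RPSA, known also as a laminin receptor, had 1367, 1370.3 and 1363 signal in the SW480-LM3 libraries, against 4856, 4827 and 4694 signal in the SW480-P libraries (log2 change -1.81 ± 0.026 (SE), adjusted p = 1.22e-16). Among members mutated in Diamond-Blackfan anaemia or lost in the 5q- syndrome, RPS14 changed by -1.70, RPS19 by -1.44 and RPS24 by -1.40. RPS3, at the mRNA entry, changed by -1.07.

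RPL39L had no read in any SW480-LM3 library, and 52.04, 51.02 and 46.4 signal in the SW480-P libraries. Against a floor of 3 reads over the 3 SW480-LM3 libraries it was at least 875-fold lower. This paralog of RPL39 is known for its high level in male germ cells. It entered the test only through the SW480-P libraries, and its fitted change of -5.67 depends on the value added before the log.

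**Figure D2:**
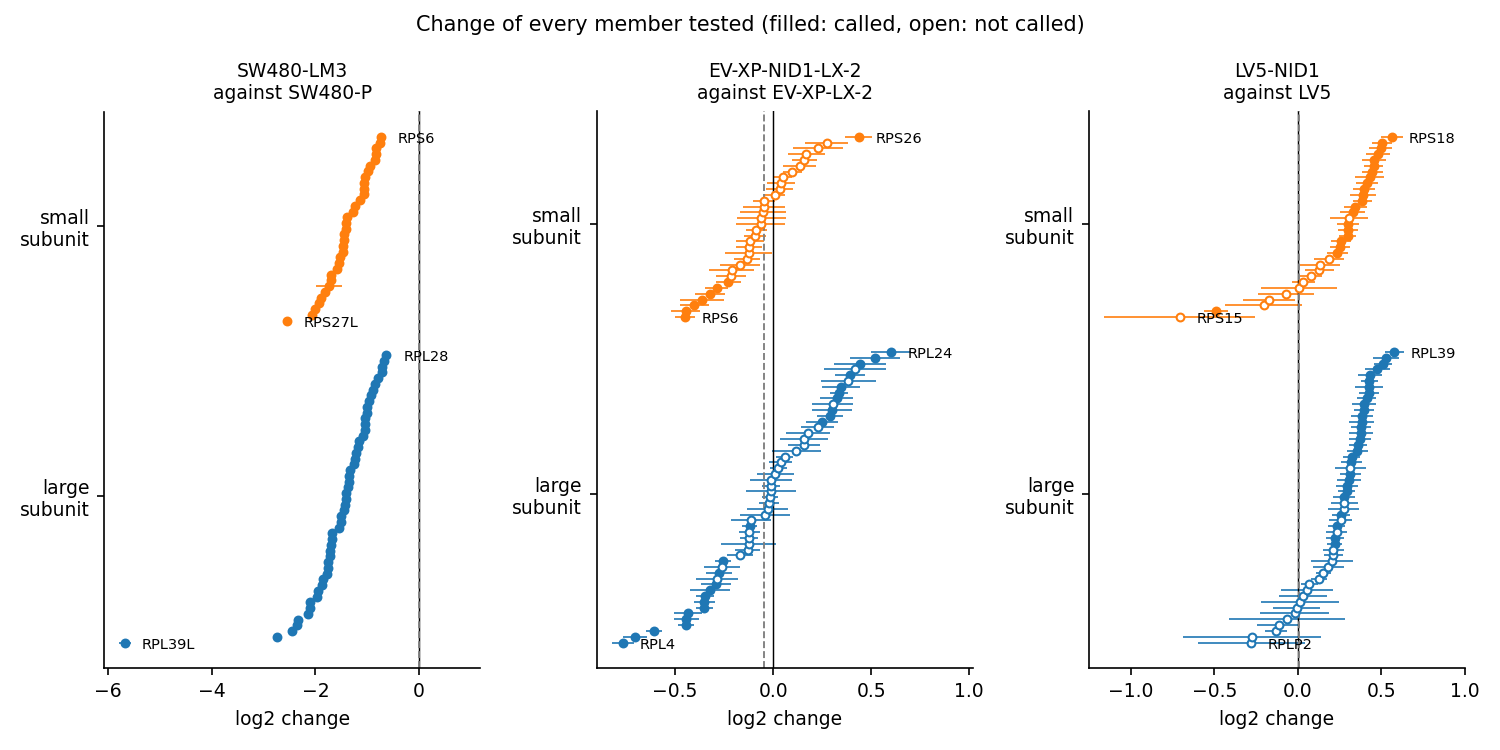
Log2 change of every member tested (horizontal axis), ranked within the large (blue) and small (orange) subunit, for the 3 comparisons. Bars are SEs, filled points passed an adjusted p under 0.05, open points did not, and the dashed line is the median of all genes tested; the left panel spans more than the others. All members lie left of 0 for SW480-LM3, they spread to both sides for EV-XP-NID1-LX-2, and most lie right of 0 for LV5-NID1.

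RACK1 and FAU, ribosomal protein genes whose symbols fall outside the rule, moved alongside the members. RACK1, a signalling scaffold on the small subunit, had 1081, 1099 and 1041 signal in the SW480-LM3 libraries, against 2682, 2650.2 and 2469.9 signal in the SW480-P libraries. FAU was lower as well (log2 change -1.08 ± 0.032 (SE), adjusted p = 1.32e-13). Of 41 ribosome assembly factors tested, 34 were lower and 5 higher, with a median of -1.12, beside 43.9% of all genes in each direction. The nucleolar chaperone NPM1 had 1086, 1025 and 1027 signal in the SW480-LM3 libraries, against 4712, 4722 and 4868 signal in the SW480-P libraries (log2 change -2.19 ± 0.030 (SE), adjusted p = 8.49e-17), and SBDS, which helps release EIF6 from new large subunits, changed by -1.91. NAT10, RRP12, BOP1, NOB1 and NOL6 were the assembly factors called higher.

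Of 18 translation factors and other genes with TOP mRNAs, 15 were lower and 3 (EEF2, PABPC1 and EIF3F) higher, with a median of -0.76. For this list and those below, the share over all genes was 43.9% in each direction. NACA, part of the nascent chain complex, changed by -1.51 and the elongation factor subunit EEF1B2 by -1.47. RNA polymerase I and its factors, which make ribosomal RNA, had 11 lower and 2 higher of 14. Its largest subunit POLR1A was among the higher genes (log2 change 1.35 ± 0.048 (SE), adjusted p = 1.33e-12), and TAF1D among the lower (-1.88). Of 10 ribosomal protein chaperones 7 were lower and 3 higher, BCCIP with -1.29. The mTOR pathway had 7 higher and 7 lower of 15, near the share over all genes, with EIF4G1 at 1.13 and RHEB at -1.28. MYC, which drives ribosome production genes, was higher in SW480-LM3, with 178, 194 and 189 signal in the SW480-LM3 libraries, against 154, 153 and 147 signal in the SW480-P libraries (log2 change 0.30 ± 0.041 (SE), adjusted p = 6.7e-06).

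LX-2 cells given NID1 vesicles were compared with LX-2 cells given control vesicles to see what NID1 in the vesicles changes in stellate cells. The members went both ways. Of 51 large subunit genes tested, 10 were higher, 14 lower and 27 not called in EV-XP-NID1-LX-2, and of 33 small subunit genes 1 was higher, 7 lower and 25 not called. Over all genes 17.8% were higher and 24.6% lower, which is close to the members' shares apart from the single higher call in the small subunit. The median change was -0.017 in the large and -0.064 in the small subunit, beside -0.048 for all genes, and none reached 1 on the log2 scale, a change that 1.22% of all genes passed downward and 0.557% upward. The groups did not overlap for 15 large and 6 small subunit members that were higher and 16 large and 8 small subunit members that were lower, beside 23.4% and 32.5% of all genes, and 42.3% of all genes were called in either direction.

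EV-XP-NID1-LX-2 replicate 2 stood apart from the other libraries. The large subunit took 7.02, 8.57 and 7.06% of TPM in the EV-XP-NID1-LX-2 libraries, against 7.39, 7.35 and 7.47% in the EV-XP-LX-2 libraries. The small subunit took 4.81, 5.74 and 4.77% in the EV-XP-NID1-LX-2 libraries, against 5.45, 5.26 and 5.41% in the EV-XP-LX-2 libraries. Of 83 members, 51 were more than 0.2 (log2) higher in replicate 2 than the mean of replicates 1 and 3, and only RPL7L1 was more than 0.2 lower. The 51 had a median GC content of 47.9% in their coding sequence and the other 32 had 55.6%. Across members the deviation of that library ran with coding GC content (Spearman's rho -0.73, 83 genes of 1 library, which are not independent), and across 8988 other genes rho was -0.53. The part of this library in the counts below was measured by leaving it out.

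Without replicate 2, all 32 members called with the full set were called again in the same direction, and 23 more were called lower and 7 more higher. The large subunit then had 15 higher and 27 lower and the small subunit 3 higher and 17 lower, beside 22% of all genes higher and 23.1% lower. RPL11, RPL12, RPS23 and RPS24 were among the members gained on the lower side, and RPL23, RPL37, RPS3A and RPSA on the higher side. The median change without it was -0.12 in the large and -0.19 in the small subunit, against -0.017 and -0.064 with all libraries. Leaving out any EV-XP-LX-2 library left 5 large subunit members higher, beside 12.9 to 13.9% of all genes.

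Among large subunit members the lowest was RPL4, which lines the exit tunnel, with 705, 776 and 737 TPM in the EV-XP-NID1-LX-2 libraries, against 1300.2, 1188 and 1288 TPM in the EV-XP-LX-2 libraries (log2 change -0.77 ± 0.056 (SE), adjusted p = 0.000266). RPL13 had 1020.2, 896 and 995 TPM in the EV-XP-NID1-LX-2 libraries, against 1608, 1528 and 1603 TPM in the EV-XP-LX-2 libraries (log2 change -0.70 ± 0.059 (SE), adjusted p = 0.000339). RPL15, in the core of the subunit, had 1237, 1248 and 1228 TPM in the EV-XP-NID1-LX-2 libraries, against 1921, 1829 and 1907 TPM in the EV-XP-LX-2 libraries (log2 change -0.61 ± 0.042 (SE), adjusted p = 0.000232). For these 3 the EV-XP-NID1-LX-2 libraries lay together, replicate 2 included, and well below the EV-XP-LX-2 libraries. RPL18 (log2 change -0.45 ± 0.042 (SE), adjusted p = 0.000468) and RPL28 (-0.35, adjusted p = 0.00154) were lower too.

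On the higher side, RPL24, which forms a bridge between the subunits, had 1805, 2356 and 1838 TPM in the EV-XP-NID1-LX-2 libraries, against 1256, 1344 and 1319.9 TPM in the EV-XP-LX-2 libraries (log2 change 0.60 ± 0.10 (SE), adjusted p = 0.0035). RPL26L1 had 297, 382 and 264 TPM in the EV-XP-NID1-LX-2 libraries, against 202, 232 and 216 TPM in the EV-XP-LX-2 libraries (log2 change 0.52 ± 0.13 (SE), adjusted p = 0.0156). RPL38 had 1296, 1869 and 1315 TPM in the EV-XP-NID1-LX-2 libraries, against 1111, 1061 and 1076 TPM in the EV-XP-LX-2 libraries (log2 change 0.44 ± 0.13 (SE), adjusted p = 0.0329). Replicate 2 was the highest library for each of them, yet replicates 1 and 3 were also above every EV-XP-LX-2 library. RPL37 had a change of 0.42 that did not pass (adjusted p = 0.0696). RPL5 was higher (log2 change 0.29 ± 0.066 (SE), adjusted p = 0.011), while its partner RPL11 had 943, 1253 and 951 TPM in the EV-XP-NID1-LX-2 libraries, against 1284, 1280.3 and 1238 TPM in the EV-XP-LX-2 libraries and was not called (adjusted p = 0.0682), its replicate 2 overlapping the EV-XP-LX-2 libraries. RPL23, RPL10 and RPL39 were not called, with changes of 0.38, 0.025 and 0.12, and RPL13A was lower by a small amount (-0.12, adjusted p = 0.042). The call did not hold for RPL26L1 without replicate 1 of EV-XP-LX-2 (adjusted p = 0.0528), for RPL38 without any EV-XP-LX-2 library (adjusted p = 0.0696 to 0.0816) and for RPL13A without any EV-XP-LX-2 library or replicate 1 or 3 of EV-XP-NID1-LX-2 (adjusted p = 0.0972 to 0.164). With no filter on low values none of RPL26L1, RPL38 and RPL13A kept its call. RPL38 and RPL13A also lost theirs with median-ratio scaling, and RPL13A with quantile normalization and with GC and length trends removed. The highest adjusted p over alternatives was 0.0548 for RPL26L1, 0.104 for RPL38 and 0.44 for RPL13A.

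In the stalk, RPLP0 had 1604, 1672 and 1665 TPM in the EV-XP-NID1-LX-2 libraries, against 1959, 1965 and 1973 TPM in the EV-XP-LX-2 libraries (log2 change -0.26 ± 0.041 (SE), adjusted p = 0.00295). RPLP2 had 747, 779 and 722 TPM in the EV-XP-NID1-LX-2 libraries, against 976, 903 and 991 TPM in the EV-XP-LX-2 libraries (log2 change -0.35 ± 0.053 (SE), adjusted p = 0.00229), a call lost with GC and length trends removed. RPLP1 was not called (-0.022, adjusted p = 0.761).

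In the small subunit RPS26 was the only member called higher, with 410.5, 486 and 424 TPM in the EV-XP-NID1-LX-2 libraries, against 322, 332 and 319 TPM in the EV-XP-LX-2 libraries (log2 change 0.44 ± 0.067 (SE), adjusted p = 0.00239). RPS6 had 1002, 1110.4 and 1012 TPM in the EV-XP-NID1-LX-2 libraries, against 1409.5, 1400.4 and 1451 TPM in the EV-XP-LX-2 libraries (log2 change -0.45 ± 0.053 (SE), adjusted p = 0.000935). RPS3 had 1539, 1554 and 1301 TPM in the EV-XP-NID1-LX-2 libraries, against 2033, 1937 and 1997 TPM in the EV-XP-LX-2 libraries (log2 change -0.45 ± 0.074 (SE), adjusted p = 0.00331). For each of these 3 members the groups were apart. RPS18, in the head of the subunit, had 2263, 2676 and 2349 TPM in the EV-XP-NID1-LX-2 libraries, against 3356, 3060.3 and 3200.0 TPM in the EV-XP-LX-2 libraries (log2 change -0.40 ± 0.074 (SE), adjusted p = 0.00474), also with no overlap. RPS27, RPS14 and RPS28 were lower too, with changes of -0.36, -0.32 and -0.29. RPSA, RPS3A and RPS27A had changes of 0.16, 0.27 and 0.23 that did not pass. RPS19 and RPS24 were not called (-0.045 and -0.21). The call did not hold for RPS27 without any EV-XP-LX-2 library or replicate 1 or 3 of EV-XP-NID1-LX-2 (adjusted p = 0.0675 to 0.0973) and for RPS14 without replicate 1 of EV-XP-LX-2 (adjusted p = 0.0503), nor for RPS28 with median-ratio scaling (adjusted p = 0.06). Median-ratio scaling lost the calls of RPS27 and RPS14 too. That of RPS27 was also lost with no filter on low values, and that of RPS14 with GC and length trends removed. The highest adjusted p over alternatives was 0.149 for RPS27 and 0.0905 for RPS14.

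The ratio of large to small subunit TPM was 1.46, 1.49 and 1.48 in the EV-XP-NID1-LX-2 libraries, against 1.36, 1.40 and 1.38 in the EV-XP-LX-2 libraries, with no overlap. Mitochondrially encoded genes took 3.69 ± 0.13% of TPM in EV-XP-NID1-LX-2 and 6.09 ± 0.11% in EV-XP-LX-2 (SD, n = 3 each), and their part in the members' shares was measured by rescaling without them. The large subunit then had 8 higher and 18 lower members and the small subunit 1 higher and 8 lower, beside 15.6% of all genes higher and 27.6% lower. The summed level of 10 stellate cell or fibroblast markers was 2060.1 to 2439 TPM in EV-XP-NID1-LX-2 and 3079 to 3265 TPM in EV-XP-LX-2, and its part was not tested.

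**Figure D3:**
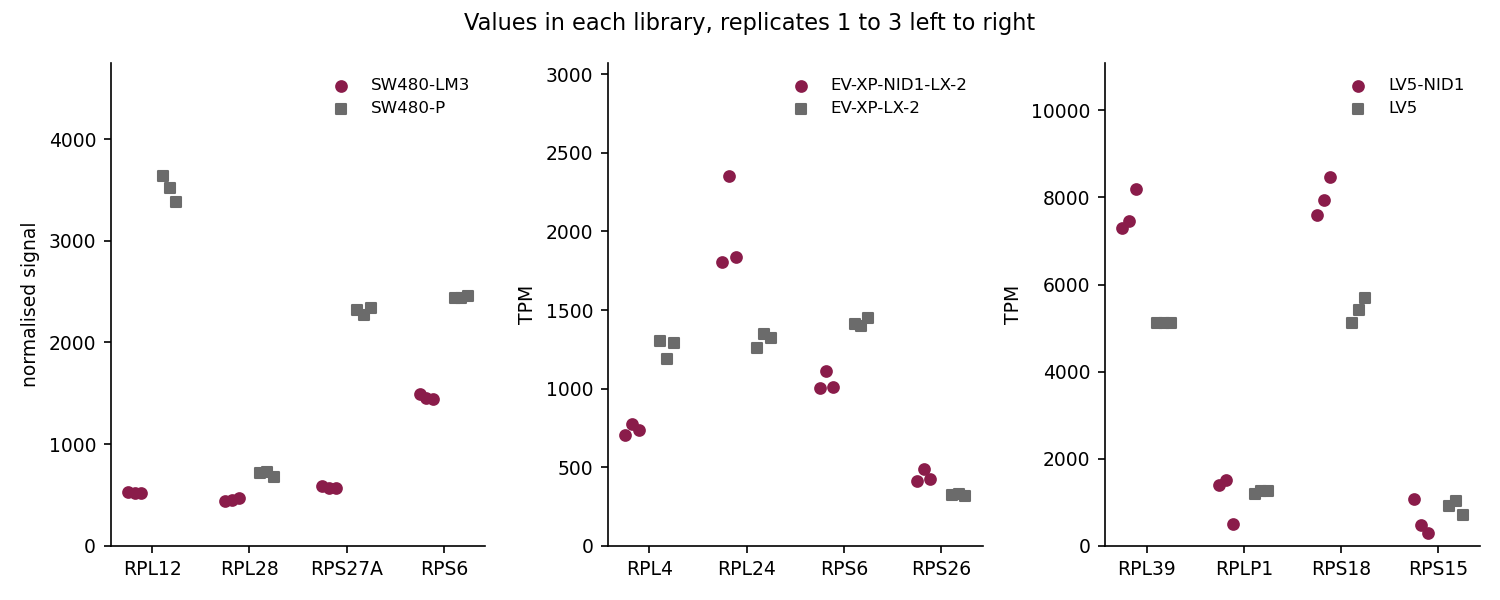
Values of 4 members in each comparison (vertical axis, normalised signal on the left and TPM in the other panels), with each library as a point, replicates 1 to 3 from left to right. Circles are SW480-LM3, EV-XP-NID1-LX-2 or LV5-NID1 and squares are SW480-P, EV-XP-LX-2 or LV5. The groups are apart for all 4 members on the left and in the middle, and on the right RPL39 and RPS18 are higher in LV5-NID1 while RPLP1 and RPS15 are low in its replicate 3.

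Outside the rule, RACK1 had 1709.5, 1708 and 1692 TPM in the EV-XP-NID1-LX-2 libraries, against 2429, 2285 and 2368 TPM in the EV-XP-LX-2 libraries (log2 change -0.47 ± 0.044 (SE), adjusted p = 0.000461) and FAU was not called. Of 42 assembly factors 25 were higher and 1, NHP2, lower, with a median of 0.26. For this list and those below, 17.8% of all genes were higher and 24.6% lower. SBDS had 419, 464 and 426 TPM in the EV-XP-NID1-LX-2 libraries, against 233, 249 and 241 TPM in the EV-XP-LX-2 libraries (log2 change 0.85 ± 0.053 (SE), adjusted p = 0.000174) and EIF6, the factor it helps release, changed by 0.55. Of 18 translation factors and TOP genes 11 were lower and 0 higher by limma, among them HNRNPA1 with -0.62 and EIF3L with -0.59. RNA polymerase I had 4 higher and 2 lower of 14, RRN3 with 0.74 and POLR1F with 0.45. Chaperones had 2 higher and 3 lower of 10, RPS19BP1 with 0.32 and AAMP with 0.29. The mTOR pathway had 5 higher and 4 lower of 15, the cap-binding protein EIF4E with 0.77 and TSC2 with -0.68. MYC was lower (log2 change -0.31 ± 0.069 (SE), adjusted p = 0.0102).

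LV5-NID1 was compared with LV5 to see what changes in SW480 cells that overexpress NID1 while vesicle release is inhibited. Most members were higher. Of 51 large subunit genes tested, 29 were higher, 0 lower by limma and 22 not called, and of 32 small subunit genes 20 were higher, 1 lower and 11 not called, where 7.27% of all genes were higher and 9.32% lower. At an unadjusted p under 0.05, 38 large and 22 small subunit members passed in either direction. The share over all genes at that threshold was not taken, so these 2 counts have no background. The median log2 change was 0.28 in the large and 0.30 in the small subunit, a median level 1.21 and 1.23 times that of LV5, beside 0.0059 for all genes. The groups did not overlap for 39 large and 20 small subunit members that were higher, and 21.7% of all genes were higher with no overlap. In turn, 1 small subunit member was lower with no overlap, beside 21.6% of all genes, and 16.6% of all genes were called in either direction. No member reached a change of 1 (log2), which 0.142% of all genes passed upward and 1.28% downward.

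The members made up 23.4, 23.4 and 24.0% of TPM in the LV5-NID1 libraries, against 18.6, 19.0 and 19.4% in the LV5 libraries. The large subunit accounted for 13.6 ± 0.14% in LV5-NID1 and 10.9 ± 0.18% in LV5, and the small subunit for 10.01 ± 0.19% in LV5-NID1 and 8.08 ± 0.22% in LV5 (SD, n = 3 each). The ratio of the subunits was 1.34 to 1.37 in LV5-NID1 and 1.34 to 1.36 in LV5, which overlap. Mitochondrially encoded genes took 13.0 ± 0.15% in LV5-NID1 and 14.2 ± 1.0% in LV5, and rescaled without them 27 large and 18 small subunit members were higher, beside 6.09% of all genes. The summed level of 9 colon epithelial markers was 927 to 988 TPM in LV5-NID1, with CDX2 at 0 in each library, and 1633 to 1673 TPM in LV5, and its part in the members' levels was not tested.

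The largest rise of the large subunit was that of RPL39, with 7307, 7453 and 8186 TPM in the LV5-NID1 libraries, against 5112, 5118 and 5111 TPM in the LV5 libraries (log2 change 0.58 ± 0.055 (SE), adjusted p = 0.00301). RPL26, which binds near the tunnel exit, had 5371, 5911 and 6574 TPM in the LV5-NID1 libraries, against 3991, 4177 and 4163 TPM in the LV5 libraries (log2 change 0.53 ± 0.079 (SE), adjusted p = 0.0112). RPL36A, at the exit site for transfer RNA, had 2827, 2703 and 3013 TPM in the LV5-NID1 libraries, against 2036, 1979.9 and 1969 TPM in the LV5 libraries (log2 change 0.51 ± 0.053 (SE), adjusted p = 0.00391). In all 3 the LV5-NID1 libraries were above every LV5 library. RPL10 had 4827, 4977 and 5546 TPM in the LV5-NID1 libraries, against 3424, 3739.8 and 3859 TPM in the LV5 libraries (log2 change 0.48 ± 0.074 (SE), adjusted p = 0.0124). RPL41, RPL31, RPL12 and RPL7A rose by 0.43, 0.43, 0.38 and 0.31 on the log2 scale. The call did not hold for RPL26 without replicate 1 or 2 of LV5 or replicate 2 of LV5-NID1 (adjusted p = 0.0516 to 0.0538), for RPL10 without replicate 1 or 2 of LV5 (adjusted p = 0.0506 to 0.0555), for RPL12 without replicate 1 or 2 of LV5 or replicate 2 of LV5-NID1 (adjusted p = 0.0578 to 0.0671) and for RPL7A without any LV5 library or replicate 2 of LV5-NID1 (adjusted p = 0.0611 to 0.093). With no filter on low values the calls of RPL26, RPL10, RPL12, RPL7A, RPL41 and RPL31 did not hold. Those of RPL12, RPL7A and RPL41 did not hold with quantile normalization either. The highest adjusted p over alternatives was 0.083 for RPL12, 0.141 for RPL7A, 0.0854 for RPL41 and 0.0712 for RPL31.

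RPL11 was higher (log2 change 0.23 ± 0.051 (SE), adjusted p = 0.0307), a direction that turned with quantile normalization (log2 change -0.022), and RPL5 had 0.28 without passing (adjusted p = 0.065). RPL23 was higher by 0.22 (adjusted p = 0.0401). RPL38 and RPL13A were not called (0.32 and 0.054). RPLP0 had 4197, 4316 and 4856 TPM in the LV5-NID1 libraries, against 3229.7, 3469 and 3574 TPM in the LV5 libraries (log2 change 0.38 ± 0.073 (SE), adjusted p = 0.0225). Its stalk partners behaved otherwise. RPLP1 had 1398, 1509.5 and 501 TPM in the LV5-NID1 libraries, against 1196, 1247 and 1251 TPM in the LV5 libraries and RPLP2 had 1899, 1572 and 769 TPM in the LV5-NID1 libraries, against 1592, 1617 and 1591 TPM in the LV5 libraries. In LV5-NID1 replicate 3 both were far below the other libraries, and neither was called (adjusted p = 0.668 and 0.566). The call did not hold for RPL11 without any LV5 library or replicate 1 or 2 of LV5-NID1 (adjusted p = 0.0695 to 0.115), for RPL23 without any LV5 library or replicate 1 or 2 of LV5-NID1 (adjusted p = 0.0512 to 0.137) and for RPLP0 without any LV5 library or replicate 2 of LV5-NID1 (adjusted p = 0.0578 to 0.0813). With no filter on low values the calls of RPL11, RPL23 and RPLP0 did not hold. Those of RPL23 and RPLP0 were lost with quantile normalization, and those of RPL11 and RPL23 with median-ratio scaling. The highest adjusted p over alternatives was 0.718 for RPL11, 0.63 for RPL23 and 0.0915 for RPLP0.

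In the small subunit RPS18 rose most, with 7593, 7939 and 8464 TPM in the LV5-NID1 libraries, against 5115, 5409.6 and 5698 TPM in the LV5 libraries (log2 change 0.56 ± 0.064 (SE), adjusted p = 0.00504). RPS12 had 3392, 3419 and 3817 TPM in the LV5-NID1 libraries, against 2524, 2453 and 2511 TPM in the LV5 libraries (log2 change 0.50 ± 0.058 (SE), adjusted p = 0.00533). RPS6 had 2799.9, 2895 and 3272 TPM in the LV5-NID1 libraries, against 2082, 2082 and 2178 TPM in the LV5 libraries (log2 change 0.50 ± 0.068 (SE), adjusted p = 0.00883). In all 3 the groups were apart. RPS27, the most abundant member in both groups, had 7888, 8095 and 8818 TPM in the LV5-NID1 libraries, against 5493, 6266 and 6040.4 TPM in the LV5 libraries (log2 change 0.48 ± 0.071 (SE), adjusted p = 0.0109), and its groups did not overlap, but its call did not hold with no filter on low values (adjusted p = 0.0713). RPS23 rose by 0.41, RPS14 by 0.30, RPS24 by 0.45, RPS26 by 0.39 and RPS27A by 0.30. RPS27L was the only member called lower, with 185, 159 and 161 TPM in the LV5-NID1 libraries, against 242, 230.4 and 237 TPM in the LV5 libraries (log2 change -0.49 ± 0.071 (SE), adjusted p = 0.0101). RPSA, RPS3 and RPS19 were not called (0.033, 0.079 and 0.0097). The call did not hold for RPS23 without replicate 2 or 3 of LV5 (adjusted p = 0.0548 to 0.0629), for RPS14 without replicate 1 or 2 of LV5 or replicate 2 of LV5-NID1 (adjusted p = 0.0553 to 0.0706), for RPS26 without replicate 1 or 2 of LV5 (adjusted p = 0.0553 to 0.0608), for RPS27A without any LV5 library or replicate 2 of LV5-NID1 (adjusted p = 0.0762 to 0.104) and for RPS27L without replicate 1 of LV5 (adjusted p = 0.0518). The calls of RPS23, RPS14 and RPS27A were also lost with no filter on low values and with quantile normalization. The highest adjusted p over alternatives was 0.339 for RPS23, 0.0706 for RPS14 and 0.209 for RPS27A.

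LV5-NID1 replicate 3 stood apart in a group of members. RPS15, a small subunit protein near the decoding site, had 1065, 484 and 295 TPM in the LV5-NID1 libraries, against 917, 1018 and 711 TPM in the LV5 libraries (log2 change -0.71, adjusted p = 0.311). RPL18 had 1322, 1349 and 793 TPM in the LV5-NID1 libraries, against 1079, 1157 and 1178 TPM in the LV5 libraries, and RPS19 had 3608, 3323 and 1977 TPM in the LV5-NID1 libraries, against 2644, 2911 and 3018 TPM in the LV5 libraries. For RPL18 and RPS19, replicates 1 and 2 of LV5-NID1 were above every LV5 library and replicate 3 below every one. For RPS15, replicate 1 was above them and replicates 2 and 3 below. Of 83 members 19 were more than 0.2 (log2) lower in that library than the mean of replicates 1 and 2, with a median coding GC content of 58.2%, against 48.7% in the other 64. Across members the deviation of replicate 3 ran with coding GC content (Spearman's rho -0.54), and across 7777 other genes rho was -0.60.

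The opening 60 coding bases of a pair of members that were not low in replicate 3 and a pair that were are shown to let their base composition be seen. They come from GENCODE v29 transcripts on GRCh38, and capitals mark G and C. Their genes span, for RPL39, chrX:119786504-119791643, RPL26 chr17:8377516-8383250, RPS15 chr19:1438358-1440494 and RPLP2 chr11:809647-812880, and every stretch is spliced exon sequence from the start codon on.
RPL39: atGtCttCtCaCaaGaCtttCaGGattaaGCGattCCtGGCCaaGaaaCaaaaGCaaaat
RPL26: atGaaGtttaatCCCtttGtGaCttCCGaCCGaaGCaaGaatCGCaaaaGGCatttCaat
RPS15: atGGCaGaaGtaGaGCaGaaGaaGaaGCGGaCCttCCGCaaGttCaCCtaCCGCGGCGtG
RPLP2: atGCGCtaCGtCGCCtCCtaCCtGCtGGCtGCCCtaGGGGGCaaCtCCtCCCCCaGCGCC

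G and C made up 38.3% and 40% of the stretches of RPL39 and RPL26, and 56.7% and 70% of those of RPS15 and RPLP2. Over the whole coding sequence the values were 42.5%, 45.1%, 63.0% and 56.2%. These genes are chosen examples and do not show a clean split. Coding GC content ran from 44.4 to 63.0% in the 19 members low in replicate 3 and from 40.4 to 61.0% in the other 64.

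**Figure D4:**
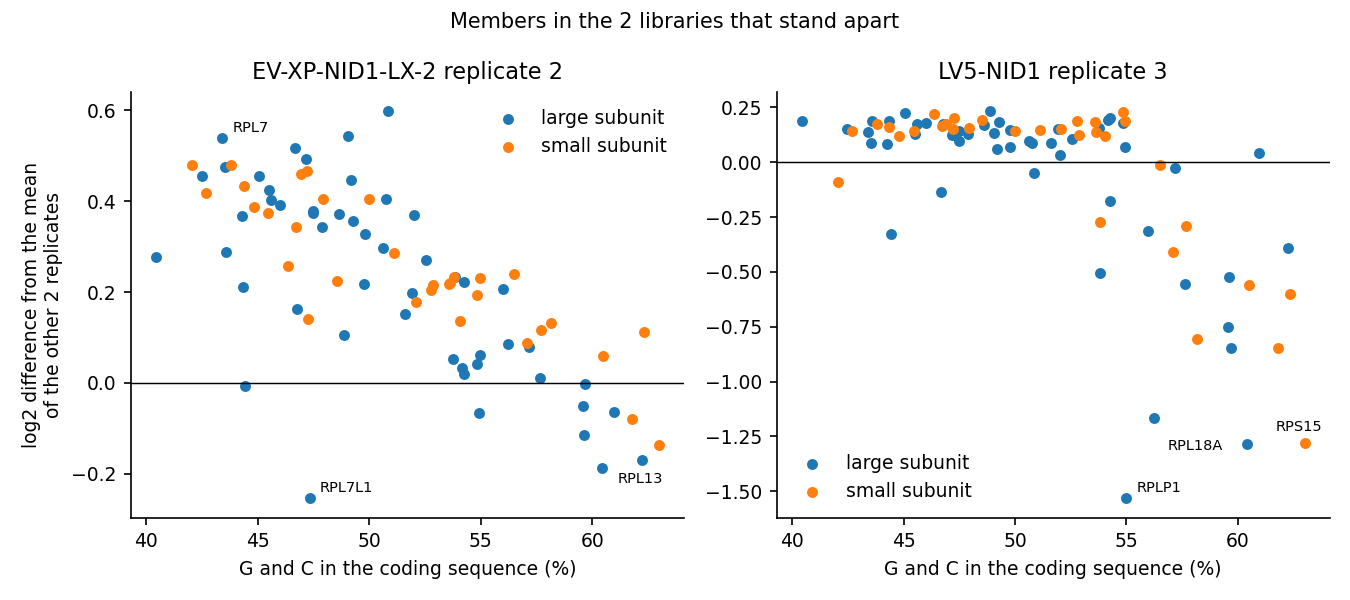
Difference of 1 library from the mean of its 2 fellow replicates (vertical axis, log2) against the share of G and C in the coding sequence of each member (horizontal axis, %), with the large subunit in blue and the small subunit in orange. Members poor in G and C tend to be high in EV-XP-NID1-LX-2 replicate 2, and members low in LV5-NID1 replicate 3 tend to be rich in G and C, with RPLP1 lowest.

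Without LV5-NID1 replicate 3 all 49 members called higher were called again and 18 more were, 43 of the large and 24 of the small subunit in all, beside 8.38% of all genes. RPLP1, RPL13, RPL15, RPL18, RPL38 and RPS19 were among those gained, and RPLP1 and RPL18 had positive changes there (0.24 and 0.23). Across members the change in the full set ran with coding GC content (rho -0.47), and without that library rho was -0.21. Across 11744 other coding genes rho was -0.40 in the full set and -0.19 without that library. The number called rested on the other libraries as well. It was 12 without LV5 replicate 2, 14 without LV5 replicate 1, 22 without LV5 replicate 3 and 21 without LV5-NID1 replicate 2, beside 1.19 to 2.04% of all genes, and 41 without LV5-NID1 replicate 1, beside 3.79%. With any of these libraries left out, the medians over members tested were between 0.27 and 0.33 in both subunits. With quantile normalization they were 0.13 in the large and 0.090 in the small subunit, beside 0.059 for all genes, and 23 members were called higher, beside 8.28% of all genes.

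RACK1 rose with the members (3291, 3268 and 3336 TPM in the LV5-NID1 libraries, against 2601, 2619.6 and 2564 TPM in the LV5 libraries, adjusted p = 0.00463), and FAU, low in LV5-NID1 replicate 3, had 1324, 1394 and 500.4 TPM in the LV5-NID1 libraries, against 1127, 1168 and 1171 TPM in the LV5 libraries. Of 42 assembly factors 14 were higher and 0 lower by limma, with a median of 0.14. For this list and those below, 7.27% of all genes were higher and 9.32% lower. GNL3 changed by 0.41 and NPM1 by 0.30. Of 18 translation factors and TOP genes 5 were higher, EEF1B2 with 0.43 and HNRNPA1 with 0.30. RNA polymerase I had 2 higher of 14, POLR1E and TAF1D, both with 0.30, and chaperones 2 of 10, PDCD2 with 0.43 and NAP1L1 with 0.28. No gene of these lists was lower and none of 15 mTOR pathway genes was called by limma. MYC had 192, 172 and 153 TPM in the LV5-NID1 libraries, against 150.2, 152 and 144 TPM in the LV5 libraries and was not called (adjusted p = 0.154).

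A ratio of a paralog to its partner within a library does not depend on how that library was scaled, and 21 such ratios were tested by exact two-sided permutation. With 3 libraries against 3 the smallest p is 0.1, and over 21 tests the smallest adjusted p was 0.12, so none could pass. Because the signal of the first table is not per length, its percentages compare libraries and not genes. RPS27L stood at 3.45, 3.67 and 3.47% of its partner in the SW480-LM3 libraries, against 5.49, 5.35 and 6.31% in the SW480-P libraries. In LX-2 cells RPS27L stood at 7.57, 7.50 and 6.66% of its partner in the EV-XP-NID1-LX-2 libraries, against 5.75, 6.13 and 5.74% in the EV-XP-LX-2 libraries. In the third comparison it stood at 2.35, 1.96 and 1.83% of its partner in the LV5-NID1 libraries, against 4.40, 3.68 and 3.92% in the LV5 libraries. The groups did not overlap in any of the 3, with differences of -0.69, 0.30 and -0.97 in log2 ratio.

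RPL26L1 followed the same order, with 2.91, 3.10 and 2.91% of its partner in the SW480-LM3 libraries, against 4.89, 5.08 and 4.83% in the SW480-P libraries. It had 8.99, 8.18 and 7.51% of its partner in the EV-XP-NID1-LX-2 libraries, against 5.91, 7.03 and 6.24% in the EV-XP-LX-2 libraries. It had 1.999, 1.87 and 1.73% of its partner in the LV5-NID1 libraries, against 3.07, 2.68 and 3.10% in the LV5 libraries. RPL26L1 and RPS27L were thus lower relative to their partners in SW480-LM3 and LV5-NID1 and higher in EV-XP-NID1-LX-2, with no overlap of groups. Most of the 21 ratios did not overlap either. In LV5-NID1 RPL26L1 itself was not called, while its partner RPL26 was called higher. In EV-XP-NID1-LX-2 RPS27L itself was not called, while its partner RPS27 was called lower. Both partner calls were lost under some alternatives. RPL22L1 had 3.62, 3.53 and 3.29% of its partner in the SW480-LM3 libraries, against 7.60, 7.56 and 8.24% in the SW480-P libraries, while it was higher relative to RPL22 in EV-XP-NID1-LX-2 (0.44) and in LV5-NID1 (0.18), again without overlap. RPL7L1 had 22.1, 21.8 and 21.9% of its partner in the SW480-LM3 libraries, against 13.98, 14.5 and 14.4% in the SW480-P libraries. In LX-2 cells its ratio overlapped, since replicate 2 of EV-XP-NID1-LX-2 had 9.68% and the others 16.8%. RPL36AL relative to RPL36A differed by 0.12, 0.32 and -0.44.

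RPL39L had 74.1, 71.7 and 70.1 TPM in the EV-XP-NID1-LX-2 libraries, against 74.1, 71.7 and 71.7 TPM in the EV-XP-LX-2 libraries, which overlap. It had 92.1, 74.9 and 65.9 TPM in the LV5-NID1 libraries, against 85.9, 87.7 and 76.9 TPM in the LV5 libraries, also overlapping, so the paralog without a read in SW480-LM3 was present in both LV5 groups. Relative to RPL39 it stood at 1.26, 1.00 and 0.81% in the LV5-NID1 libraries, against 1.68, 1.71 and 1.50% in the LV5 libraries, a difference of -0.70 in log2 ratio with no overlap. In LX-2 cells that ratio differed by -0.13, with overlap. RPL3L, the paralog of RPL3 known from striated muscle, was listed at 0 to 0.06 TPM in EV-XP-NID1-LX-2 and 0 to 0.04 TPM in EV-XP-LX-2. It had 0.02 to 0.23 TPM in LV5-NID1 and 0.03 to 0.08 TPM in LV5, and was too low for the limma test in either comparison. Its ratio to RPL3 differed by 0.16 (log2) in LV5-NID1 against LV5, with overlap, and rests on values near 0.

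**Figure D5:**
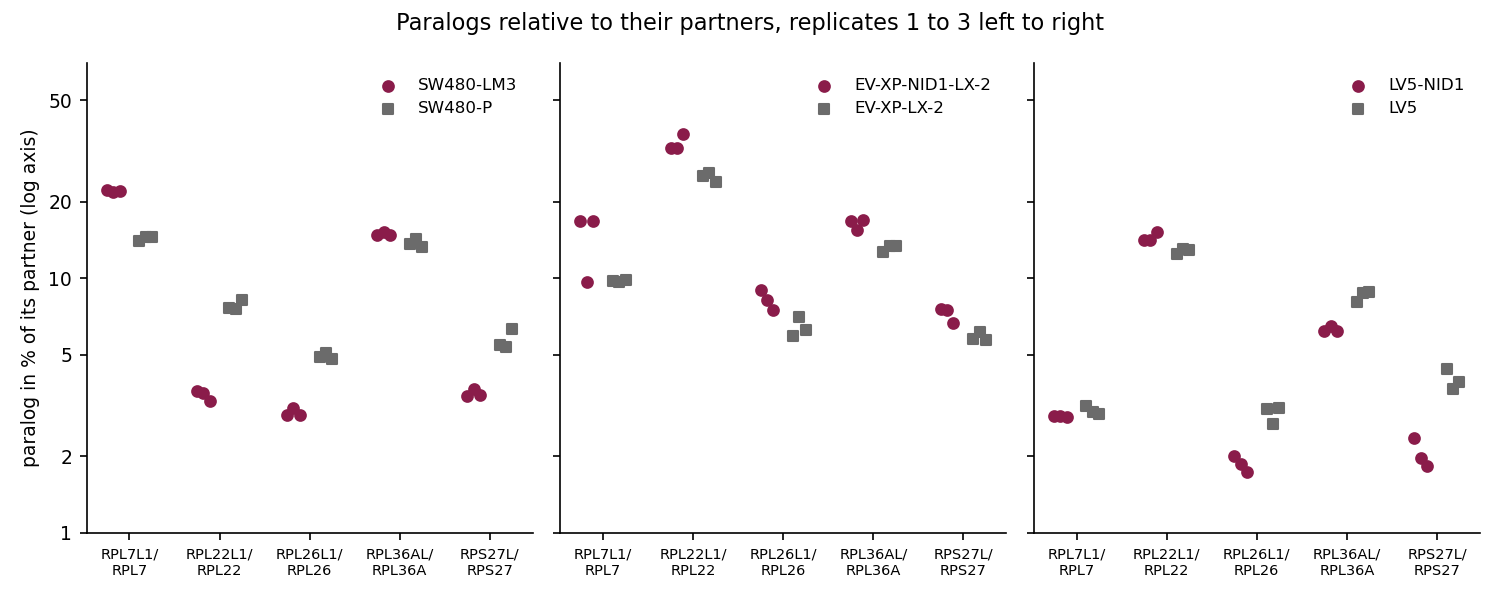
Level of 5 paralogs in % of their partners (vertical axis, log scale) in each library, replicates 1 to 3 from left to right, for the 3 comparisons. Circles are SW480-LM3, EV-XP-NID1-LX-2 or LV5-NID1 and squares are SW480-P, EV-XP-LX-2 or LV5. RPL26L1 and RPS27L lie lower in SW480-LM3 and LV5-NID1 and higher in EV-XP-NID1-LX-2 than in their controls, and RPL7L1 overlaps in LX-2 through 1 library.

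Per length, members spanned a wide range. In LV5-NID1 the median was 2256 TPM for 51 large subunit genes and 2881 TPM for 32 small subunit genes, and in LV5 it was 1883 and 2251 TPM. In EV-XP-NID1-LX-2 the medians were 1146 and 1460 TPM, and in EV-XP-LX-2 1259 and 1525 TPM. RPL41, RPL39 and RPL26 were among the 5 highest in both LX-2 groups. RPL41, the smallest ribosomal protein, averaged 4828 ± 739.8 TPM in EV-XP-NID1-LX-2 and 3894 ± 14.1 TPM in EV-XP-LX-2 (SD, n = 3 each). In LV5-NID1 and LV5 the 5 highest were RPS27, RPS18, RPL41, RPL39 and RPL31. RPS27 averaged 8267 ± 488 TPM in LV5-NID1 and 5933 ± 398 TPM in LV5, and RPS18 averaged 7999 ± 438 TPM in LV5-NID1 and 5407 ± 292 TPM in LV5 (SD, n = 3 each), which lie within each other's spread in LV5-NID1. The paralogs RPL39L, RPL7L1, RPL22L1, RPS27L and RPL36AL were among the lowest in every group.

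Levels of LV5 and EV-XP-LX-2 come from separately normalized tables, so they are set side by side without a test. The order of members was broadly shared (rho 0.78 over 83 genes, which share their lengths). Of these, 72 were higher in LV5, and the median over all 83 was 1.46 times the EV-XP-LX-2 level. The same was not computed over all genes, so these values cannot be read as particular to the members. The groups also differ in composition, with mitochondrially encoded genes at 14.2% of TPM in LV5 and 6.09% in EV-XP-LX-2. RPL12 had 4429 ± 133 TPM in LV5 and 1194 ± 15.3 TPM in EV-XP-LX-2, and RPL7A had 5003 ± 229 TPM in LV5 and 1548 ± 48.2 TPM in EV-XP-LX-2 (SD, n = 3 each). RPL9 went furthest the other way, with 244 ± 19.6 TPM in LV5 and 2517 ± 13.6 TPM in EV-XP-LX-2. RPL9 has near-identical copies, RPL9P8 and RPL9P9, among which reads can be split, so its level is uncertain.

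Across the 3 comparisons 83 members were tested in each, and no comparison shares a library with another. All 83 were lower in SW480-LM3, with the exceptions under other normalizations named above. Of these, 33 were not called in LX-2 cells and higher in LV5-NID1, 9 were lower in EV-XP-NID1-LX-2 and higher in LV5-NID1 (among them RPL4, RPLP0, RPS6 and RPS18), and 7 were higher in both (RPL22L1, RPL24, RPL27, RPL41, RPL7L1 and RPS26 among them). Many of these calls did not hold with 1 of the 6 libraries of a comparison left out. In LX-2 cells the call was lost for 2 of the 6 libraries for RPL22L1 and for 3 each for RPL27 and RPL41. In LV5-NID1 it was lost for 4 each for RPL22L1, RPL24, RPL27, RPL7L1, RPL4 and RPLP0 and for 2 for RPS26. RPS27L alone was lower in LV5-NID1. Of the members not called in LV5-NID1, 12 were lower in EV-XP-NID1-LX-2, 4 were higher there and 17 were not called there either. How many of all genes show each of these joint patterns was not counted. The order of changes was little shared: rho was -0.26 between SW480-LM3 and EV-XP-NID1-LX-2, -0.15 between SW480-LM3 and LV5-NID1 and 0.082 between EV-XP-NID1-LX-2 and LV5-NID1, each over 83 members.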

How the data were processed

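The authors' deposited tables give each gene's TPM in 4 groups and, for SW480-LM3 with SW480-P, a normalised signal. HISAT2 2.1.0 and Bowtie2 2.3.5 are named in the submitters' processing notes without their roles, with the counting method and genome build not given in the sources used here. The deposited signal was whole reads divided by 1 factor per library (100% of values whole within 0.05), so the edgeR 4.0.16 quasi-likelihood test and DESeq2 1.42.0 were run on the recovered reads as alternatives. Because the signal is not scaled for length, levels were compared between genes only in the TPM tables.

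Groups were compared with limma 3.58.1 in R 4.3.3 on log2(value + 1), for genes of at least 1 in at least 3 libraries, with p-values adjusted over all genes tested. This scale understates the change of low genes. The fits were checked on simulated data. Shares, paralog ratios and exact permutation tests were computed in Python 3.11.15 with scipy 1.17.1. GC content and coding length came from GENCODE release 29 and were matched for 93.5 to 97.5% of the genes tested.

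The members and lists were chosen with earlier results of these data known. Genes were named by rule: per subunit the 4 largest rises and falls, members called against the majority, the paralogs, the 5 most abundant, the stalk proteins, RPSA, 14 members with a known role in disease or regulation, and per related list the 2 called genes with the smallest adjusted p. Some genes that the rule names are not reported here. The assembly factors that moved against their list were named after their values were seen. Replicate numbers are shared between groups, but deviations of same-numbered libraries correlated by only -0.047 to 0.063, so no block was used. Alternatives covered normalisation, pseudocount, low-value filter, variance trend, composition, a replicate block and leaving out each library.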

Additional observations from a re-analysis of the deposited data

How the results depend on the processing

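The fall of all 84 members in SW480-LM3 held in the edgeR and DESeq2 tests, with every library left out in turn, and under the other scalings except quantile normalization and the removal of GC and length trends. Quantile normalization called 2 large and 1 small subunit members higher (RPL8 0.17, RPLP2 0.15, RPS6 0.12), and removing GC and length trends called 2 and 2 higher (RPL36AL 0.19, RPS6 0.23 and RPS3A 0.093 among them, with RPS29 at 0.037), and the cause was not tested. Requiring a log2 change of at least 1 as well left 3479 genes higher and 3113 lower in SW480-LM3, 88 and 192 in EV-XP-NID1-LX-2 and 22 and 198 in LV5-NID1, with 0 members in either direction in the last 2 comparisons. In LX-2 cells, large subunit members called higher numbered 4 with no low filter (7.56% of all genes) and 5 to 15 with 1 library left out (12.9 to 22%), and those called lower 9 with GC and length trends removed (23.6%) and 10 to 27 with 1 library left out (17.2 to 23.1%). Small subunit members called higher numbered 4 with GC and length trends removed (27%), 4 with quantile normalization (23.5%) and 1 to 3 with 1 library left out, and those called lower 3 with median-ratio scaling (23.3%) and 4 to 17 with 1 library left out. The ratio of RPL39L to RPL39 in LX-2 cells ranged over -0.2518 to 0.02567 (log2) with 1 library left out.

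In LV5-NID1, large subunit members called higher numbered 6 with no low filter, 12 with quantile normalization and 6 to 43 with 1 library left out, and small subunit members 7, 11 and 6 to 24, beside 1.6%, 8.28% and 1.19 to 8.38% of all genes, with 0 to 2 small subunit members called lower. Over all genes 1782 were higher with GC and length trends removed, 521 with no low filter, 2151 when scaled to the other genes and 185 to 1299 with 1 library left out, and 494 to 2026 were lower with 1 library left out. RPL18 had 0.29 with GC and length trends removed and -0.1511 to 0.2317 with 1 library left out, RPLP1 -0.5556 to 0.2385, and RPL11 -0.022 with quantile normalization. The log2 ratio of RPLP2 to RPLP1 ranged over -0.1281 to 0.1518 with 1 library left out (0.01175 without LV5 replicate 1). That of RPL3L to RPL3, 0.16 in the full set, ranged over -0.7581 to 0.9935 (-0.2593 without LV5 replicate 1) and was -0.0963 with a pseudocount of 1. RPL3L is near 0 TPM in both groups, so the ratio has no settled direction. The large subunit's share rose by 2.93 percentage points without mitochondrially encoded genes, against 2.71 with them. With the replicate block 45 members were higher in LV5-NID1, 41 of the 49 called without it and 4 others, and over all genes the block left 233 higher and 657 lower. The block's numbers mark no shared culture in the labels, and it moved no count of members in any comparison by more than 1.5 times. Over all results and alternatives, 1145 of 1161 values for SW480-LM3, 1000 of 1113 for EV-XP-NID1-LX-2 and 928 of 1120 for LV5-NID1 kept their direction and side of the threshold, or for counts stayed within 1.5 times. Depth is unknown for the TPM tables, and with 3 libraries a group no single ratio could pass its exact test.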

Other observations

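Symbols left out of the member list were counted separately. In SW480-LM3, 26 of 28 pseudogene copies tested were lower and 1 higher, beside 43.9% of all genes in each direction. Both readthrough genes were lower. In EV-XP-NID1-LX-2, 4 of 44 pseudogene copies were higher and 3 lower, and 2 of 3 readthrough genes were higher. The shares over all genes were 17.8% higher and 24.6% lower. In LV5-NID1, 3 of 61 pseudogene copies were higher and 1 lower, beside 7.27% of all genes higher and 9.32% lower. Pseudogene copies and readthrough genes can share reads with near-identical parent genes, so these values are uncertain.

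Of 10 RPS6K kinases, which include the S6 kinases that phosphorylate RPS6, 5 were higher and 4 lower in SW480-LM3. That is near the share over all genes, 43.9% in each direction. RPS6KA2, chosen after its values were seen, averaged 15.6 ± 0.593 signal in SW480-LM3 and 0.584 ± 0.288 signal in SW480-P (SD, n = 3 each). It entered the test only through the SW480-LM3 libraries, and its fitted log2 change of 3.41 depends on the value added before the log. RPS6KB1, which encodes the kinase S6K1, averaged 43.8 ± 1.85 signal in SW480-LM3 and 44.2 ± 2.46 signal in SW480-P (SD, n = 3 each) and was not called by limma. In EV-XP-NID1-LX-2, 4 of 10 RPS6K kinases were lower, beside 24.6% of all genes. RPS6KB1 was among them, with 24.8 ± 1.46 TPM in EV-XP-NID1-LX-2 and 32.6 ± 1.78 TPM in EV-XP-LX-2 (SD, n = 3 each, limma adjusted p = 0.0047). RPS19BP1 was lower in SW480-LM3, higher in EV-XP-NID1-LX-2 and not called in LV5-NID1.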
